A study of Homo sapiens with 26 samples.

Results

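Cystine import and glutathione synthesis were followed through 10 genes: SLC7A11, SLC3A2, GCLC, GCLM, GSS, GSR, GPX2, GPX4, CHAC1 and ABCC1. The genes were chosen by name, with earlier results of these data known, so the shares of members called below are descriptions. All probe sets annotated to 1 of them alone were used, a probe set being the group of array probes that measures 1 transcript. That gave 20 probe sets, of which 20 passed the filter on low signals. The members were therefore 10 of the 15124 genes kept and 10 of the 19775 genes with a single-gene probe set on the array. Each gene is represented by its brightest probe set, and the others are compared with it below.

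RNA came from 786-O, a human clear cell kidney cancer line that has lost VHL function and builds up HIF-2a, and was hybridised to 26 Affymetrix U133 Plus 2.0 arrays. Cells treated with the compounds 41, 76, 40 and 77, known here only by these code numbers, had 3 arrays each. DMSO-treated cells and cells titled Blk also had 3 arrays each. The study's text speaks of 4 compounds that inhibit HIF-2a, of DMSO as the mock treatment and of untreated cells, so the numbers were taken as the compounds and Blk as untreated by elimination. The sources used here give neither doses nor exposure times. WT8 and PRC3, with 3 arrays each, are names in common use for 786-O sublines that carry wild-type VHL and an empty vector, which the labels do not state. The titles pTR and pTV, with 1 array each, are not explained. All of these are 1 cell line, and no label states whether the 3 arrays of a title come from separate cultures. The p-values therefore cover only the differences among arrays, which may be technical.

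Glutathione is the main thiol antioxidant of the cell, and cysteine is the amino acid that limits how much of it is made. Cystine enters through an exchanger formed by SLC7A11 and the heavy chain SLC3A2, glutamate-cysteine ligase (the catalytic subunit GCLC with the modifier GCLM) carries out the rate-limiting step, and glutathione synthetase (GSS) adds glycine. GPX2 and GPX4 spend glutathione on peroxides, GSR regenerates it, CHAC1 breaks it down inside the cell and ABCC1 exports it. SLC7A11, GCLC and GCLM are textbook targets of NRF2, which binds antioxidant response elements, while CHAC1, SLC7A11 and SLC3A2 are also induced by ATF4 when amino acids run short. Clear cell renal carcinoma lines are known for their reliance on GPX4, which removes lipid peroxides and holds back ferroptosis.

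Promoter windows from RefSeq (GRCh38.p14), each from 250 bases before a gene's start to 50 bases after it, were held for 6 of the 10 members: SLC3A2, GCLC, GCLM, GPX2, GPX4 and CHAC1. They were searched on both strands for the antioxidant response element core TGACNNNGC (GCNNNGTCA on the other strand) and for an amino acid response element TGATGNAAN (NTTNCATCA on the other strand). The first was present in 13.3% of the 35116 windows of that length in the table and the second in 3.61%. The matches are shown because these factors' target lists are compared with the members below, and the capitals mark the motif, written along the gene's own strand, 5′ to 3′.
GCLM: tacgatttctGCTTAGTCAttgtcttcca
SLC3A2: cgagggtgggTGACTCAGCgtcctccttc
GPX2: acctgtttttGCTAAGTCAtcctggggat
CHAC1: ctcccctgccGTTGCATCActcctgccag
The stretch of GCLM lies on the minus strand at chr1:93909446-93909474, with the motif beginning 34 bases before the start of the gene. That of SLC3A2 lies on the plus strand at chr11:62881652-62881680 in 1 of its 3 windows, 37 bases before the start. That of GPX2 lies on the minus strand at chr14:64942849-64942877, 122 bases before the start. These 3 hold the antioxidant core. The stretch of CHAC1, on the plus strand at chr15:40953251-40953279 and 210 bases before the start, holds the amino acid element. It was the only member window with the stricter form TGATGCAA (TTGCATCA on the other strand), whose letters overlap the first form and which occurred in 0.866% of all windows. SLC3A2 held a looser amino acid element as well, 36 bases after the start, and its 2 motifs did not overlap. The windows of GCLC and GPX4 held none of these letters, which says nothing of sites outside them.

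Signals are MAS5 intensities on a linear scale after quantile normalisation, and 20 is the floor below which signals carry no order. The 2% trimmed mean of an array ran from 80.1 to 95.5 as deposited. WT8 replicate 3 stood apart in RNA quality, with an ACTB 3′ to 5′ signal ratio of 2.37 against at most 1.39 on any other array. Replicates 2 and 3 of compound 40 held 54613 distinct values each, against at most 7809 in any other column, so these 2 columns were made differently. The kidney lineage marker PAX8 was at 761 or more on all 26 arrays, and PTPRC, CD14 and VWF, which mark immune and endothelial cells, were at the floor on 26 of 26. Of the other immune, endothelial and fibroblast markers, CD3E was at the floor on 19 arrays, CDH5 on 25, COL3A1 on 24, LUM on 9 and DCN on 4, while the endothelial PECAM1 (45.5 to 117) and the fibroblast COL1A1 (30.3 to 145) lay above it on all 26, and the part of other cells in the results was not tested. EPAS1, which encodes HIF-2a, was not called against DMSO with any compound, between DMSO and Blk or between WT8 and PRC3 (with 41 its log2 change was -0.40, limma adjusted p = 0.526, and with 76 it was -0.57, adjusted p = 0.348 and unadjusted p = 0.024). In bulk RNA, fewer cells that express a gene and less RNA per cell cannot be told apart.

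With compound 41 the cystine carrier and both subunits of glutamate-cysteine ligase rose, and no other member passed the test. SLC7A11 rose 6.42-fold, GCLC 2.90-fold and GCLM 2.68-fold over DMSO. Thus 3 of 10 members were called higher and 0 lower, where 1.71% of the 15124 genes were called higher. At an unadjusted p below 0.05 in limma there were 6 of 10 members, all higher. Of the 35013 probe sets kept, 4639 were below that threshold, in either direction. The median change of the members was 0.44 on the log2 scale, beside 0.01 over all genes. The other compounds are compared with the same 3 DMSO arrays, so the comparisons against DMSO are not independent of each other.

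SLC7A11 (probe set 209921_at), which takes up cystine in exchange for glutamate, had normalised signals of 1852, 2316 and 2073 with compound 41. With 76 its signals were 1938, 2195 and 1850, with 40 they were 796, 942 and 930.0, with 77 they were 380.1, 436 and 309, and with DMSO they were 460, 359 and 203. All arrays of 41, 76 and 40 lay above all DMSO arrays, while those of 77 overlapped DMSO. The log2 change was 2.68 with 41 (SE 0.30, limma adjusted p = 5.74e-06), 2.62 with 76 (SE 0.30, adjusted p = 8.29e-06) and 1.46 with 40 (SE 0.30, adjusted p = 0.019). With 77 it was 0.20, with a 95% interval from -0.41 to 0.82. SLC7A11 was also the most variable of the 3 called genes between arrays of 1 group: its pooled SD within groups was 0.42 on the log2 scale, higher than that of 81.5% of genes.

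GCLC (202923_s_at), the catalytic subunit of the ligase, gave signals of 690.4, 543 and 704 with 41, and of 734, 666 and 692 with 76. With 40 it gave 338, 392 and 407, with 77 it gave 191, 179 and 219, and with DMSO 203, 220 and 242. The arrays of 41 and 76 did not overlap those of 40, and those of 40 did not overlap DMSO. The rise over DMSO was 1.54 with 41 (SE 0.15, limma adjusted p = 5.75e-07), 1.66 with 76 (adjusted p = 1.15e-07) and 0.77 with 40 (adjusted p = 0.0115), all on the log2 scale. Compound 77 gave -0.17, with a 95% interval from -0.48 to 0.13.

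GCLM (203925_at), the modifier subunit that lowers the ligase's sensitivity to feedback by glutathione and carries the antioxidant core printed above, was the steadiest member. Its signals were 2740, 2730 and 2637 with 41, and 3065, 3045 and 3027 with 76. They were 1938, 1480 and 1645 with 40, then 968, 951 and 943 with 77 and 918, 1143 and 983 with DMSO. No array of 41, 76 or 40 fell among the DMSO arrays. The log2 rise was 1.42 with 41 (SE 0.11, limma adjusted p = 4.39e-08), 1.59 with 76 (adjusted p = 8.12e-09) and 0.73 with 40 (adjusted p = 0.00211), and 77 gave -0.08 (95% interval from -0.32 to 0.15). The pooled SD of GCLM within groups was 0.13, and only 4% of genes had a lower one, the median gene being at 0.29.

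**Figure D1:**
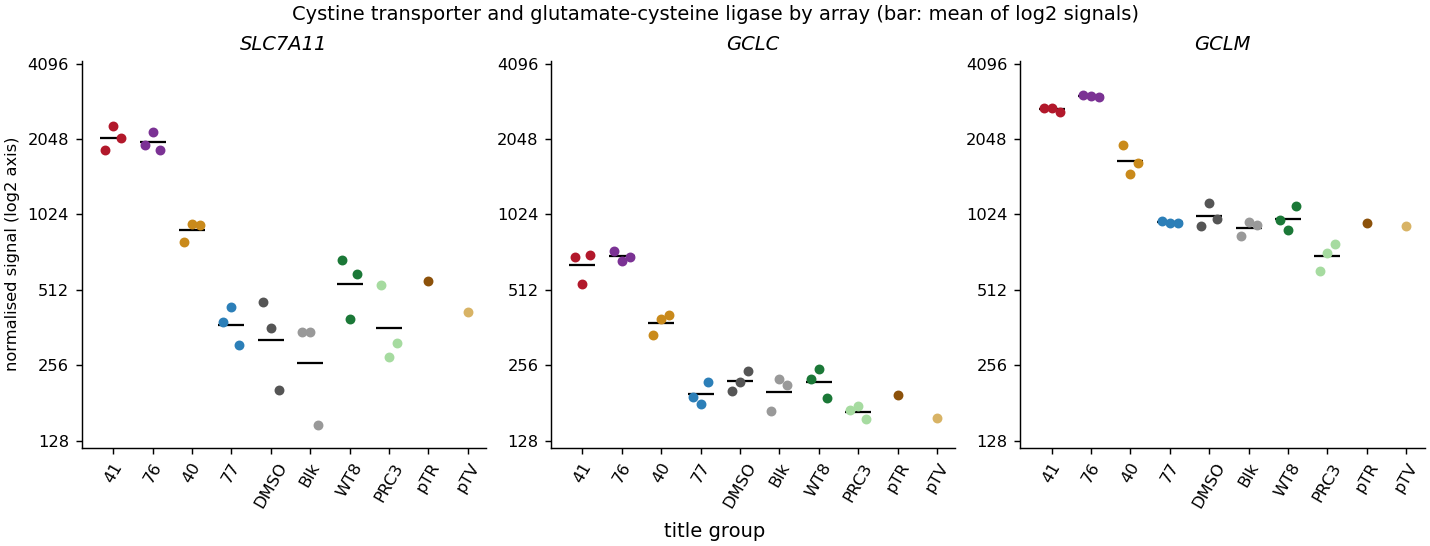
Normalised signal of SLC7A11, GCLC and GCLM (log2 axis) on each array, by title group, with a bar at the mean of the log2 signals of groups with 3 arrays. The arrays of 41 and 76 lie highest in every panel, those of 40 lie between them and DMSO, and those of 77 lie among DMSO and Blk, as in SLC7A11 with 1852 to 2316 for 41 and 203 to 460 for DMSO.

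With compound 76 the called members were again SLC7A11, GCLC and GCLM, 3 of 10 higher and 0 lower, where 1.02% of all genes were called higher. The median change of the members was 0.52, beside 0.01 over all genes. With compound 40, 3 of 10 members were called higher (SLC7A11 2.75-fold, GCLC 1.71-fold and GCLM 1.66-fold) and 0 lower, where 0.436% of all genes were called higher, and the median of the members was 0.31. Each of these calls for 40 was lost in some other fit. SLC7A11 had an adjusted p of 0.125 without DMSO replicate 3, 0.0694 without DMSO replicate 2, 0.102 without 40 replicate 2 and 0.0615 without 40 replicate 3. GCLC had an adjusted p of 0.0648 without DMSO replicate 1, 0.0644 without DMSO replicate 2, 0.0593 without 40 replicate 2 and 0.0556 without 40 replicate 3. GCLM stayed below 0.05 whichever array was left out, but scaling each array to its median in place of quantile normalisation gave 0.0955. With compound 77, 0 of 10 members were called, and 0 had an unadjusted p below 0.05 in limma, where 0.179% of all genes were called in either direction. The changes with 77 ran from -0.17 for GCLC to 0.63 for GPX2, with a median of 0.06.

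Among the members that were not called, GSR, which reduces oxidised glutathione with NADPH, had the highest change with 41 and with 76. Its signals (205770_at) were 460.2, 573 and 581 with 41, and 574, 565 and 734 with 76, against 309, 342 and 347 with DMSO. All arrays of both compounds exceeded the DMSO arrays, but the log2 changes of 0.69 with 41 (SE 0.30, limma adjusted p = 0.304) and 0.90 with 76 (SE 0.30, adjusted p = 0.185) did not pass. The other GSR probe set, 225609_at, had a change of 1.07 with 76 that passed (SE 0.25, adjusted p = 0.0289) and of 0.88 with 41 that did not (adjusted p = 0.0616). SLC3A2 (200924_s_at), the heavy chain that brings SLC7A11 and several other carriers to the membrane, had signals of 734, 716 and 677 with 41, and of 698, 717 and 615 with 76, against 562, 601 and 477 with DMSO. Its log2 change was 0.38 with 41 (SE 0.16, adjusted p = 0.254) and 0.31 with 76 (adjusted p = 0.505). The partner of SLC7A11 thus had a change well below that of SLC7A11 itself, though the difference between the 2 genes was not tested.

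ABCC1 (202804_at), a pump for glutathione and its conjugates, had signals of 387, 306 and 343 with 41 and 216, 259.9 and 251 with DMSO, which did not overlap. Its change of 0.51 on the log2 scale (SE 0.15) missed the threshold at an adjusted p of 0.0785, and 76 gave 0.29 (adjusted p = 0.528). The other ABCC1 probe set, 202805_s_at, changed by 0.26 with 41 (limma adjusted p = 0.759), and its arrays overlapped DMSO. GSS (211630_s_at), which completes the tripeptide, had signals of 529, 526 and 556 with 41, all just above the 468, 447 and 486 of DMSO, and its changes lay between -0.06 for 76 and 0.20 for 41 (adjusted p = 0.732). The other GSS probe set, 201415_at, changed by 0.39 with 41 (SE 0.14, adjusted p = 0.164), with all arrays above DMSO. GPX4 (201106_at) had changes between -0.17 for 40 and -0.04 for 77, and the 95% interval with 41 ran from -0.50 to 0.37, so a change of 2-fold lies outside it in either direction. GPX2 (239595_at), a glutathione peroxidase of epithelia, was near the floor, at most 59.8 on any array, and at 20 on 2 of the 3 arrays of 41. Its changes of 0.23 with 41 and 0.74 with 76 were not called, and its other probe set was at the floor on all arrays of both compounds and on 2 of 3 of DMSO, so it gives no measured change.

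**Figure D2:**
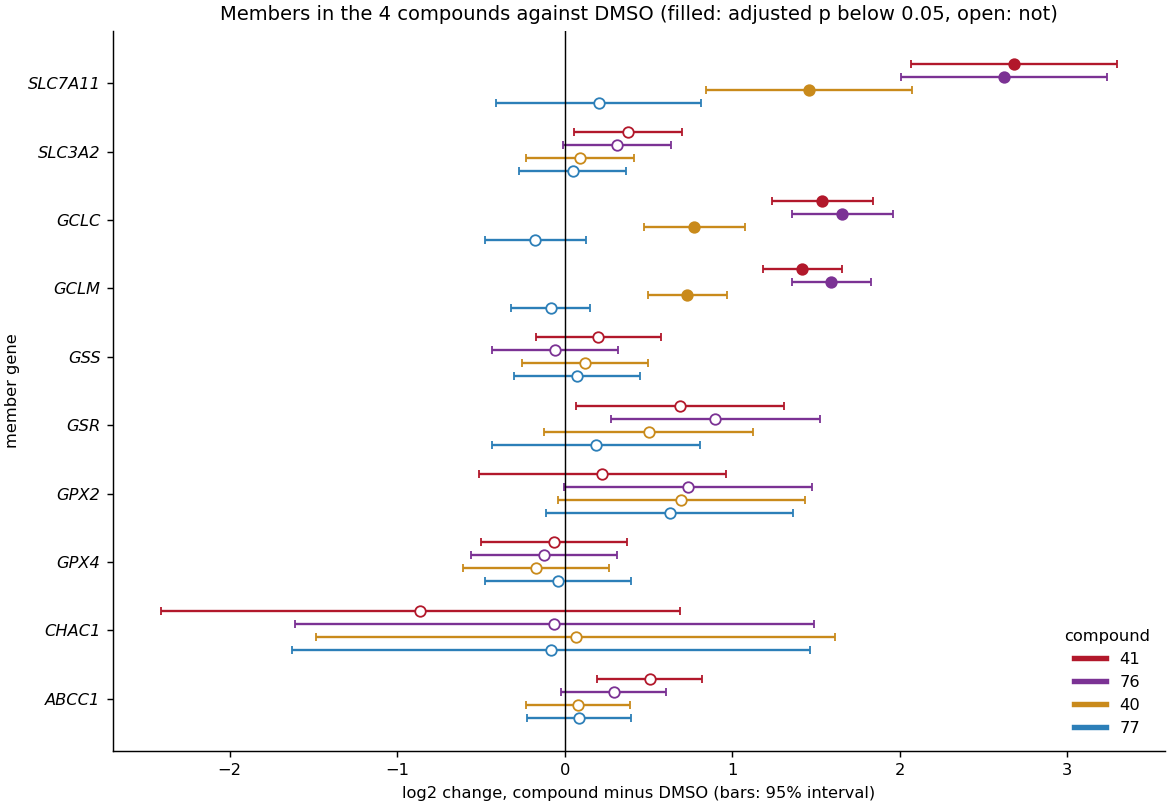
Log2 change of each member with the compounds 41, 76, 40 and 77 against DMSO, with 95% intervals, filled where the limma adjusted p was below 0.05. The 9 filled points are SLC7A11, GCLC and GCLM with 41, 76 and 40, and CHAC1 has the widest intervals, from -2.41 to 0.69 with 41.

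CHAC1 (219270_at), which cleaves glutathione and carries the amino acid element printed above, was the least steady member. Its signals were 56.4, 60.4 and 39.1 with 41, and 345, 42.7 and 47.5 with 76. They were 267, 75.2 and 45.6 with 40, then 159, 90.9 and 46.6 with 77 and 220.0, 67.5 and 53.7 with DMSO. In each of these groups except 41 replicate 1 was the highest, and the groups overlapped throughout. Within each replicate number, though, 41 was below DMSO, in 3 of 3 pairs. The change with 41 was -0.86, with an SE of 0.75 (limma adjusted p = 0.72), or of 0.38 with the replicate number as a block (adjusted p = 0.26), so it was not called either way. The pooled SD within groups was 1.08, which exceeded that of 99.9% of genes, and without the block the 95% interval with 41 reached from -2.41 to 0.69.

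**Figure D3:**
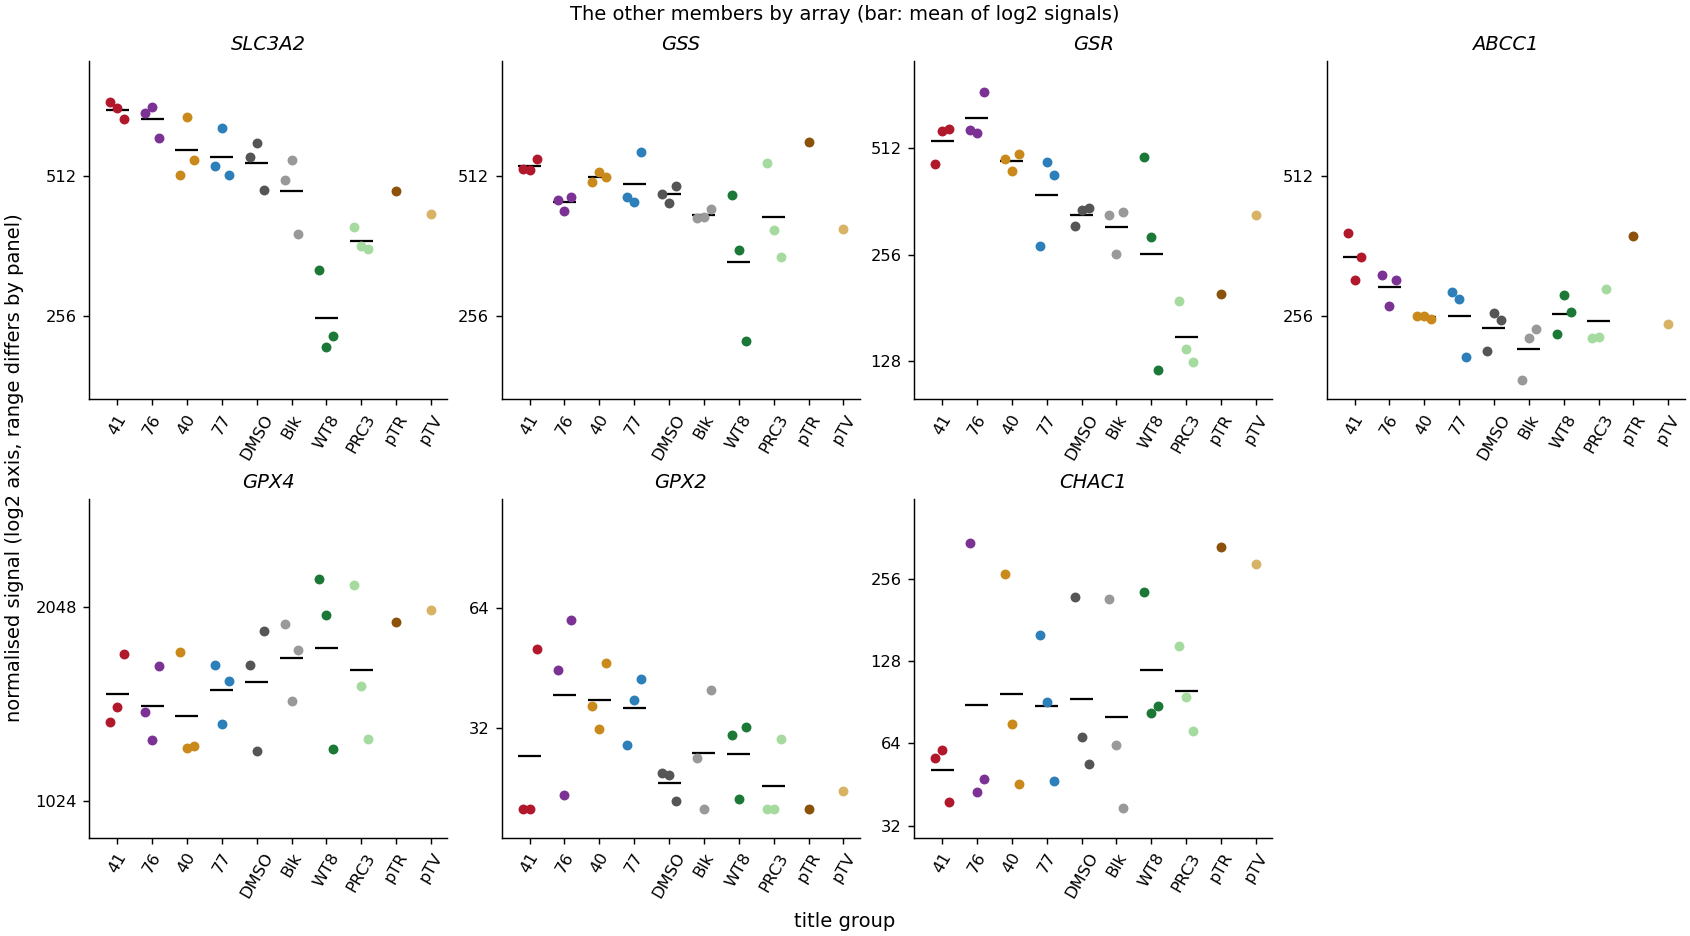
Normalised signal of the 7 other members (log2 axis, with a different range in each panel) on each array, by title group, with a bar at the mean of the log2 signals of groups with 3 arrays. SLC3A2 is lowest in WT8 (220.2 to 322), GPX2 lies near the floor of 20, and the CHAC1 arrays of a group spread widely, from 42.7 to 345 with 76.

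The compounds were then set against each other, over 6 pairs and 60 differences of a member, of which 12 were called. Doses and times are not known to match, so a difference is one between these treatments as applied. Between 41 and 76, 0 of 10 members were called in limma, and 0 had an unadjusted p below 0.05, where 0.0926% of all genes were called higher with 41. For SLC7A11 the difference of 41 minus 76 was 0.06 (95% interval from -0.56 to 0.67), for GCLC -0.12 (from -0.42 to 0.18) and for GCLM -0.17 (from -0.41 to 0.06) on the log2 scale. The GCLM arrays of 41 all lay below those of 76, at an adjusted p of 1.

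Against compound 40, 41 gave higher GCLC and GCLM, 2 of 10 members, where 0.549% of all genes were called higher. GCLC differed by 0.76 (SE 0.15, limma adjusted p = 0.0156) and GCLM by 0.69 (SE 0.11, adjusted p = 0.00492). The GCLC call was lost without 41 replicate 1 (adjusted p = 0.0765) or 41 replicate 3 (adjusted p = 0.0871). SLC7A11 differed by more, 1.22, at an adjusted p of 0.0606, close to the threshold: 4 of 7 other settings with all arrays called it (median scaling 0.0355, the stricter filter 0.0472, log2(signal + 20) 0.0493 and the replicate block 0.0208). The same 2 members were called between 76 and 40, where 0.139% of all genes were called higher: GCLC differed by 0.88 (adjusted p = 0.00656) and GCLM by 0.86 (adjusted p = 0.000667), while SLC7A11, at 1.17, had an adjusted p of 0.149. Without 76 replicate 3 the GCLC difference from 40 had an adjusted p of 0.0538. The other probe sets of SLC7A11 disagreed on its difference from 40. With 217678_at it was called, at 1.42 for 41 (limma adjusted p = 0.0448) and 1.63 for 76 (adjusted p = 0.0376). With 207528_s_at it was not, at 0.40 for 41 (adjusted p = 0.699) and 0.675 for 76 (adjusted p = 0.549).

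All 3 genes were higher with 41 and with 76 than with 77. Between 41 and 77, 3 of 10 members were called, where 0.423% of all genes were called higher, and between 76 and 77 it was 3 of 10, where 0.476% were. SLC7A11 was 5.58-fold higher with 41 than with 77 (adjusted p = 3.91e-05), GCLC 3.28-fold (adjusted p = 2.62e-07) and GCLM 2.83-fold (adjusted p = 4.73e-08). Between 40 and 77, GCLC (0.95, adjusted p = 0.00288) and GCLM (0.81, adjusted p = 0.00099) were called, 2 of 10, where 0.264% of all genes were called higher, and SLC7A11 (1.26) had an adjusted p of 0.058, with 3 of 7 other settings calling it (signals as deposited 0.0298, the stricter filter 0.0471 and the replicate block 0.0206). The order of the 8 groups by mean log2 signal began with 41, 76 and 40 for SLC7A11 and with 76, 41 and 40 for GCLC and GCLM. For SLC7A11 the arrays of 40 lay above those of WT8, the next group, and from there down to Blk all neighbours overlapped. For GCLC and GCLM the lowest group was PRC3, whose arrays did not overlap those of the group above it, and the groups between 40 and PRC3 overlapped their neighbours except at 40 and DMSO.

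The 7 members with over 1 probe set allowed a check within each array. For SLC7A11 the other 2 probe sets changed by 2.54 and 1.94 with 41 and by 2.76 and 2.21 with 76, each called. For GCLM the other 2 gave 1.495 and 1.43 with 41 and 1.73 and 1.81 with 76, each called. GCLC had a concordant probe set, at 1.13 with 41 (limma adjusted p = 0.00365) and 1.19 with 76, and another, 1555330_at, that lay at background, at the floor on 3 of 3 arrays of 41 and at most 28.3 on any array, so it gives no measured change. Averaging that probe set in with the others, in place of the brightest alone, lowered the GCLC change to 0.80 with 41 and 0.96 with 76, both still called, and to 0.38 with 40 (adjusted p = 0.217). With 40, 1 of the other 2 SLC7A11 probe sets was called (1.54, adjusted p = 0.031), and no other probe set of GCLC or GCLM was, with changes of 0.58 for 202922_at and of 0.59 and 0.74 for the 2 of GCLM.

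**Figure D4:**
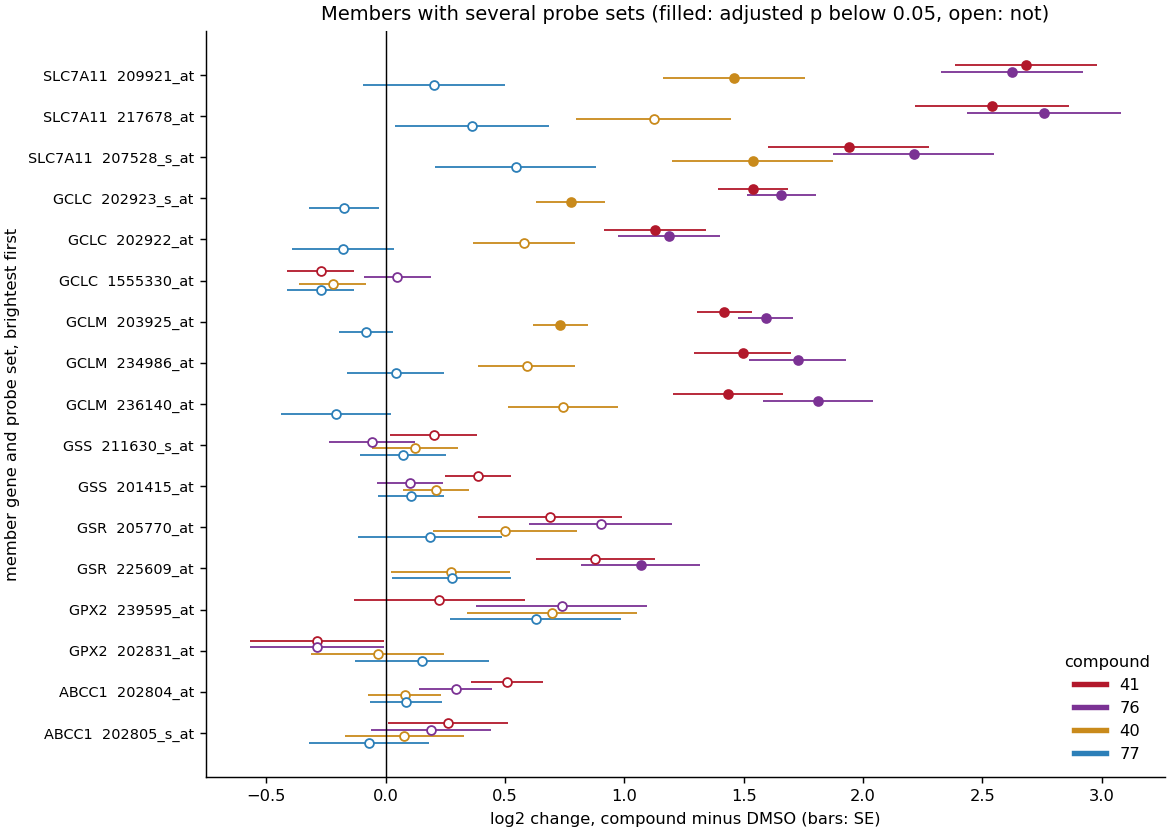
Log2 change against DMSO (bars: SE) of each probe set of the 7 members with over 1, brightest first within a gene, for the compounds 41, 76, 40 and 77, filled where the limma adjusted p was below 0.05. All probe sets of SLC7A11 and GCLM are filled for 41 and 76, and GCLC 1555330_at and GPX2 202831_at, at or near the floor of 20, show no measured change.

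No member was called between DMSO and Blk. The comparison gave 0 of 10 members and 0% of all genes, with 794 of 35013 probe sets, and 0 members, at an unadjusted p below 0.05 in limma. The changes of the members ran from -0.25 for GPX2 to 0.31 for SLC7A11, with a median of 0.15. SLC7A11 signals were 460, 359 and 203 with DMSO, against 346.3, 346.0 and 148 in Blk, which overlapped.

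The wider glutathione system was read from 6 lists of transferases, peroxidases, breakdown enzymes, cysteine supply, transport, and glutaredoxins with glyoxalases, of which 53 of 57 genes were measured. With 41, 3 of the 53 were called higher and 3 lower, where 1.71% and 1.63% of all genes were. With 76 it was 1 and 1, where 1.02% and 0.76% were, with 40 it was 1 and 1, where 0.436% and 0.41% were, and with 77 it was 1 and 0, where 0.179% were called in either direction. The median change over the lists was -0.02 with 41 and 0.06 with 76, near that of all genes. MGST1, a membrane-bound glutathione transferase and peroxidase, was the one called with all 4 compounds, by 1.05 with 41 (4037 against 1963 for DMSO, limma adjusted p = 5.34e-07), 1.08 with 76, 0.83 with 40 and 0.55 with 77 (adjusted p = 0.013). GSTM3, a cytosolic transferase, rose by 1.95 with 41 (581 against 147 for DMSO, adjusted p = 0.000322), and PRDX6, a peroxiredoxin that uses glutathione, by 0.59. CNDP2, a dipeptidase that splits cysteinylglycine, fell by 0.75 with 41 (adjusted p = 0.0059), by 0.76 with 76 and by 0.64 with 40 (adjusted p = 0.0484). The neutral amino acid carrier SLC1A4 fell by 0.91 and the mitochondrial carrier SLC25A40 by 0.66, both with 41.

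Of 22 other genes known as NRF2 targets, 20 were measured, and most rose with 41, 76 and 40. This list too was chosen with earlier results of these data known, so its shares are descriptions. With 41, 16 of 20 were called higher and 0 lower, with 76 it was 15 and 0, with 40 it was 13 and 0, and with 77 it was 1 and 0. Of all genes, 1.71%, 1.02% and 0.436% were called higher with 41, 76 and 40, and 0.179% in either direction with 77. The median changes of the 20 targets were 1.20, 1.31, 0.81 and 0.25 on the log2 scale for 41, 76, 40 and 77. HMOX1, which degrades haem, rose by 4.86 with 41 (2684 against 90.7 for DMSO, limma adjusted p = 1.89e-10) and by 3.16 with 40. The gene called with 77 was NQO1, a quinone reductase, which rose by 1.17 (4106 against 1804 for DMSO, adjusted p = 8.19e-05). At an unadjusted p below 0.05 in limma, 7 of the 20 were higher with 77 and 0 lower. Of all 35013 probe sets, 2672 were below that threshold with 77, in either direction. With 77, then, NQO1 and MGST1 passed after adjustment while SLC7A11, GCLC and GCLM did not. Of the 18 other ATF4 targets, 0 were called higher with any compound in limma, and 0 were higher at an unadjusted p below 0.05 (5 were lower with 41, 3 with 76 and 2 with 77). Of all 35013 probe sets, 4639 were below that threshold with 41 and 3646 with 76, in either direction. TRIB3, a pseudokinase induced by amino acid shortage, fell by 1.57 with 41 and ASNS, asparagine synthetase, by 1.52 (adjusted p = 0.0177 and 0.0185). These were the 2 of 18 called lower with 41, where 1.63% of all genes were called lower. With 76, 40 or 77, 0 of the 18 were called.

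The genes whose group means tracked SLC7A11 most closely over the 8 groups, among 4529 non-member genes of sufficient signal, were FBXO30, HMOX1, UGDH, EPHX1 and SRXN1, with Pearson r from 0.967 to 0.9985. For GCLM they were PSMD10, SRXN1, AKR1C2, UGDH and TXNRD1, with r from 0.986 to 0.992, and AKR1C2 has close paralogues that its probes may not separate. These r values describe 8 means that share arrays and scaling, and most of the range comes from 41, 76 and 40. For CHAC1 the best matches were lower, STARD4 at 0.924 and RIPK2 at 0.923, followed by CCDC47, TMPO and ATP5F1A. The CHAC1 group means ran from 5.67 to 6.89 on the log2 scale, beside a pooled SD within groups of 1.08. Among the members, GCLC and GCLM had r = 0.997, SLC7A11 with GCLC 0.965 and SLC7A11 with GCLM 0.954. The lowest r was -0.827, for GPX4 with SLC3A2, but the GPX4 group means ran only from 10.44 to 10.79. Neighbouring groups of GPX4 all overlapped, and its pooled SD within groups was 0.29.

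WT8 had more GCLM and less SLC3A2 than PRC3, and 8 of 10 members were not called. GCLM was at 969, 888 and 1112 in WT8, against 611, 721 and 779 in PRC3, which did not overlap, a difference of 0.49 (SE 0.11, limma adjusted p = 0.0105). SLC3A2 was at 322, 220.2 and 232 in WT8, against 398, 362 and 357 in PRC3, again without overlap, a difference of -0.55 (SE 0.16, adjusted p = 0.0428). That is 1 of 10 members higher, where 3.27% of all genes were called higher, and 1 of 10 lower, where 2.71% were called lower, and 1 is the smallest count above 0 that the members allow, so neither share is a result about the members. The GCLM call was lost without WT8 replicate 3 (adjusted p = 0.0593) or PRC3 replicate 1 (adjusted p = 0.0714). The other GCLM probe sets, 234986_at and 236140_at, differed by 0.69 and 0.63, also without overlap. Neither was called (limma adjusted p = 0.0518 and 0.138). The SLC3A2 call was lost without PRC3 replicate 1, 2 or 3 (adjusted p = 0.131, 0.0891 and 0.0708) and without WT8 replicate 2 or 3 (adjusted p = 0.21 and 0.142).

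GSR was at 482, 288 and 121 in WT8, against 189.5, 139 and 128 in PRC3, so that WT8 replicate 3, the array with the high 3′ to 5′ ratio, was the lowest of the 6. The difference of 0.77 was not called (adjusted p = 0.175), but without that array it was 1.31 and was called (adjusted p = 0.000984), and the other GSR probe set gave 0.97 with it (adjusted p = 0.0215). The part of RNA quality in these values was not tested. GSS was at 465, 354 and 226 in WT8, against 544, 391 and 344 in PRC3, which overlapped. SLC7A11, at 675, 392 and 593 in WT8 against 536, 277 and 314 in PRC3, had a difference of 0.58 (adjusted p = 0.354), and GCLC, whose arrays did not overlap, 0.39 (adjusted p = 0.147).

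Beyond the members, 4 of the 53 listed glutathione genes were called higher in WT8 and 2 lower, where 3.27% and 2.71% of all genes were. SLC7A5, which pairs with SLC3A2 as the LAT1 carrier of large neutral amino acids, was lower by 1.16 on the log2 scale, at 534 in WT8 against 1182 in PRC3 (limma adjusted p = 2.37e-05). GLRX, the cytosolic glutaredoxin, was higher by 1.48 (adjusted p = 0.00125), GPX8, a peroxidase of the endoplasmic reticulum, by 0.91 and MGST1 by 0.56, while GLRX5, of the mitochondrial iron-sulphur cluster pathway, was lower, at -0.93. SLC3A1, the heavy chain of the renal cystine carrier, was higher by 0.90 from a low signal (56.2 in WT8 against 30.0 in PRC3). Of the other NRF2 targets, 2 of 20 were called higher, AKR1C3 and CBR1, where 3.27% of all genes were, with a median of 0.31. Of the other ATF4 targets, XBP1 was higher and TRIB3 lower.

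**Figure D5:**
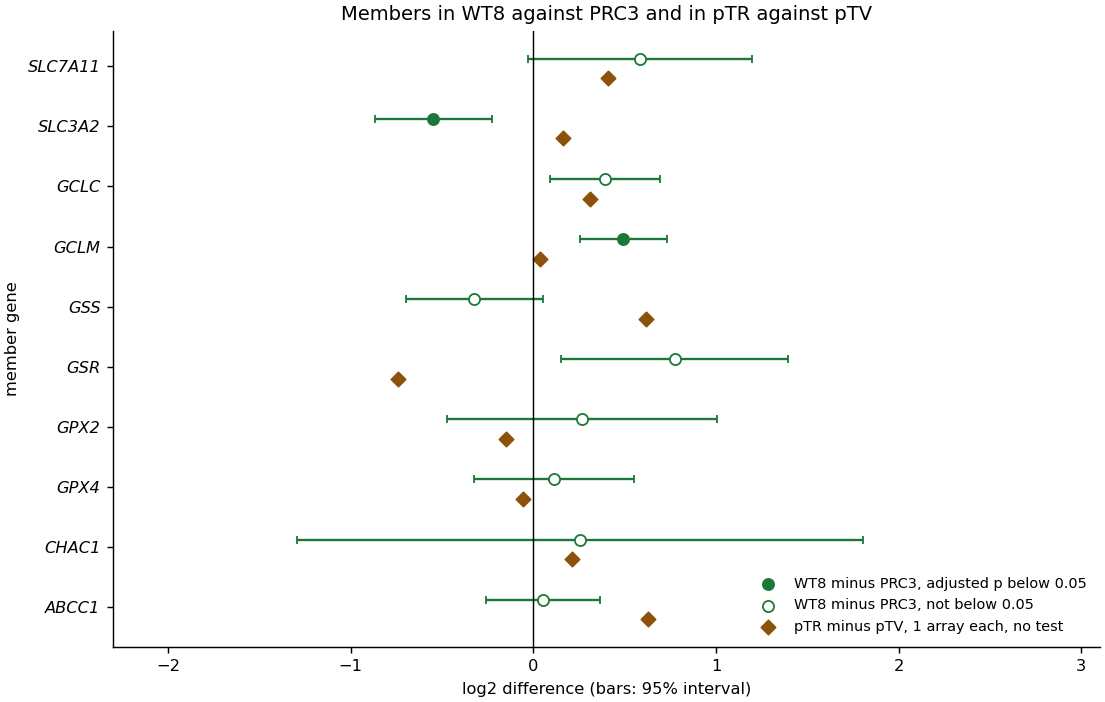
Log2 difference of each member in WT8 minus PRC3 with its 95% interval, filled where the limma adjusted p was below 0.05, and in pTR minus pTV as diamonds, 1 array each and no test. GCLM (0.49) and SLC3A2 (-0.55) are the filled points, and no diamond reaches a 2-fold difference.

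On the single arrays pTR and pTV, 0 of 10 members were 2-fold higher or lower in pTR, where 7.09% of all genes were at least 2-fold higher and 4.39% at least 2-fold lower. These are differences between 2 arrays, with no replicate check. ABCC1 had signals of 381 in pTR and 247 in pTV, GSS 603 and 393, and SLC7A11 553 and 417. The other ABCC1 probe set was level, at 174.5 in pTR and 170.6 in pTV. GSR, at 198 in pTR and 331 in pTV, was the lowest ratio, at -0.74 on the log2 scale, but its other probe set went the opposite way, at 0.28. GCLM was level at 943 in pTR and 919 in pTV, while its other 2 probe sets had differences of -0.58 and -0.52. CHAC1 was high on both arrays, at 336 in pTR and 290.0 in pTV.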

How the data were processed

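Per the labels, total RNA was labelled and hybridised to Affymetrix U133 Plus 2.0 arrays. The deposited values are signal intensities on a linear scale, and MAS5 is named in the submitters' processing notes (version not given in the sources used here). A floor of 20 and a ceiling of 16000 are stated by the labels. Here the signals of the 26 arrays were quantile normalised without the 62 control probe sets, set to that floor and ceiling and put on a log2 scale. A probe set was kept if 3 or more of the 24 replicated arrays had it no lower than their own median signal, which left 35013 of 54613. The number of arrays limits the precision.

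Gene names came from the platform annotation, checked through the RefSeq table, where 41037 of 41091 single-gene probe sets matched. A gene was represented by its brightest probe set, by mean log2 signal. The comparisons used limma 3.58.1 (R 4.3.3; lmFit, then eBayes with trend) on all 24 arrays together, without a block, with 16 residual degrees of freedom. Members were called at a Benjamini-Hochberg adjusted p below 0.05 over the 35013 probe sets. Each fold change is the antilog of a difference between mean log2 signals, and group signals in brackets are means of 3 arrays. The procedure was tested on simulated data whose arrays varied independently, so that test does not cover deviations shared by same-numbered arrays.

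The members and lists were chosen with earlier results of these data known. Named are all members, up to 3 called genes per list, direction and comparison, and the 5 genes with the highest Pearson r to SLC7A11, GCLM and CHAC1 whose highest group mean reached the 70th percentile. Outside that rule, CTH, DDIT3 and NUPR1 are named for their deviation by replicate number. Same-numbered arrays deviated together, with correlations above 0.1 for each number, in some comparisons. These were 41, 76 and Blk with DMSO (0.146 to 0.293) and WT8 with PRC3 (0.107 to 0.457). With DMSO the correlations ran from 0.077 to 0.141 for 40 and from 0.067 to 0.165 for 77. An alternative with the replicate as a block treated the numbers as pairs in all groups with 3 arrays, 40 and 77 included. Other alternatives were no or median scaling, no or a stricter filter, log2(signal + 20), the mean of probe sets, 2 groups alone, and leaving out each array.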

Additional observations from a re-analysis of the deposited data

How the results depend on the processing

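For 41 and 76 against DMSO, SLC7A11, GCLC and GCLM kept their direction in every alternative run. All 3 remained called with 41, while with 76 SLC7A11 had an adjusted p of 0.0547 when the 2 groups were fitted alone. With 77, and for DMSO against Blk, 0 members were called in every alternative. With 40, 1 of the 3 members called remained under median scaling, 0 with the 2 groups alone, 1 without both 40 replicate 2 and 40 replicate 3, and 1 to 3 when single arrays were left out. For WT8 against PRC3, 1 of the 2 remained with signals as deposited, with no filter or with log2(signal + 20), and 0 under median scaling or with the 2 groups alone. When single arrays were left out, 0 to 2 members were called, and the highest count in the other alternatives was 3. The differences called between compounds numbered 10 to 14 over the alternatives, against 12. The replicate block changed no call of a member against its control. It gave 14 differences between compounds, adding SLC7A11 for 41 against 40 and for 40 against 77, which other settings also called, and the numbers are not shown to pair the arrays of 40 or 77. The mean of probe sets, which includes a GCLC probe set at background, lowered GCLC to 0.80 with 41 and 0.96 with 76. GPX2 was not kept under the stricter filter.

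Changes of sign, in members not called, were as follows on the log2 scale. They cover all members with 41, 76 and 40 and in WT8 against PRC3, and SLC7A11, GCLC and GCLM with 77. Those of DMSO against Blk, of 41 against 76, and of the other members with 77 or between compounds are not listed. With 41, GPX2 was -0.032 over the mean of probe sets and GPX4 0.028 under median scaling. With 76, GSS was 0.023 over the mean of probe sets. Without both 40 replicate 2 and 40 replicate 3, compound 40 has 1 array, which is assumed to vary like the other groups: SLC3A2 was -0.081 and GPX4 0.15, and CHAC1, at 1.53, is then a replicate 1 alone and says nothing of the compound. In WT8 against PRC3, ABCC1 was -0.073 under median scaling and -0.12 over the mean of probe sets. When single arrays were left out, GPX2 with 41 ran from -0.22 to 0.45, GPX4 from -0.24 to 0.069 with 41 and -0.30 to 0.0099 with 76 (lowest -0.35 with 40), and CHAC1 from -1.04 to 0.56 with 76 and -0.66 to 0.69 with 40. With 40, SLC3A2 ran from -0.03 to 0.18 and ABCC1 from -0.0016 to 0.13. With 77, SLC7A11 ran from -0.13 to 0.46 and GCLM from -0.15 to 0.0062. In WT8 against PRC3, GPX4 ran from -0.064 to 0.37, CHAC1 from -0.22 to 0.53 and ABCC1 from -0.013 to 0.17. The cause of these changes was not tested.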

Other observations

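CHAC1 moved with the replicate number of the titles more than with any treatment, a pattern chosen after its values were seen. Replicate 1 was the highest array in 7 of 8 groups, the exception being 41. Its mean deviation from the group mean on replicate 1 was 1.08 on the log2 scale, rank 5 of 15124 genes, with -0.31 on replicate 2 and -0.76 on replicate 3. CTH, the enzyme that makes cysteine from cystathionine, had 1.02 on replicate 1, rank 7. It was the only gene of the cysteine supply list examined in this way, so it says nothing of that list. DDIT3 and NUPR1, stress-response genes and the highest of the ATF4 list, had 0.74 and 0.73. All 18 of the 18 other ATF4 targets measured lay above 0 on replicate 1, with a median of 0.37, where 48.3% of all genes lay above 0 and their median was -0.01. On replicate 1 the other 9 members had deviations between -0.08 and 0.19. On replicates 2 and 3 GPX2 had -0.305 and 0.38, and SLC7A11 had 0.04 and -0.23. What the replicate number stands for is not given in the sources used here, and its part in these values was not tested.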
